A study of Mus musculus with 441 samples.

Results

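The genes described here are 36 chaperones, chaperonin subunits and cochaperones, taken from a fixed list of symbols and not by a cut on measured values. Earlier results of these data were known when the list was chosen. All 36 were found in an expression table of 13561 genes. They fall into 8 genes that heat shock and other protein stress are known to induce (Hspa1a, Hspa1b, Dnajb1, Hsph1, Bag3, Hsp90aa1, Dnaja1 and Chordc1) and 28 genes that most cells express all the time. The constitutive genes comprise 8 subunits of the cytosolic chaperonin ring, 3 subunits of prefoldin, 3 members of the Hsp70 family, 3 mitochondrial chaperones, 6 genes of Hsp90 and its cochaperones, 3 J proteins, the nucleotide exchange factor Bag1 and the transcription factor Hsf1. The list was named for the cytosol, but Hspa9, Hspd1 and Hspe1 encode proteins of the mitochondrial matrix and are described as such.

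Chaperones bind unfolded or partly folded proteins and let them fold without clumping. Hsp70 proteins take up short exposed stretches with the help of J proteins, Hsp90 completes the folding of kinases and receptors with cochaperones such as Stip1, Cdc37 and Ahsa1, and the chaperonin ring encloses actin, tubulin and other proteins handed over by prefoldin. Under stress, Hsf1 binds heat shock elements in promoters and turns on the inducible members, while dividing cells need the constitutive members to fold newly made protein.

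The data were full-length transcriptomes of 441 single cells sorted from mouse pancreatic islets as CD4 T cells that bound a tetramer (joined MHC class II molecules presenting a chosen peptide, which bind T cells whose receptor recognises it). Of these, 184 cells came from a HIP tetramer sort and 257 from an Ins tetramer sort; the labels spell out neither abbreviation, and name no strain, genotype, age, treatment or animal. The authors' annotation placed 111 HIP and 61 Ins cells in a T follicular helper class, which gives help to B cells, 61 HIP and 25 Ins cells in an activated CD4 class, 3 HIP and 115 Ins cells in a regulatory (Treg) class, and 9 HIP and 35 Ins cells in a dividing class. Cluster 4, with 21 Ins cells, was annotated as B cells. Each sort counts as 1 sample, so no test was possible, and all differences below are descriptions of these cells without a replicate check.

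Cells carried running numbers, and each stretch of 96 consecutive numbers, called a block here, held cells of only 1 sort (blocks 1 and 3 HIP, blocks 2, 4 and 5 Ins). Blocks are used to show spread within a sort and are not replicates. The median number of genes detected per cell was between 1862 and 2294 in the T follicular helper, activated and Treg groups, 3992 in HIP and 3610 in Ins dividing cells, and 2477 in cluster 4. Values are TPM, the share of a gene's transcripts scaled to 1000000 per cell, which keeps no sequencing depth; genes detected per cell are given in its place, and cells could not be thinned to a common depth. All 6 T cell markers in the table were detected in each T cell group, and their summed level averaged 4024 to 10472 TPM against 359.7 TPM in cluster 4, where 6 markers of antibody-secreting cells summed to 144334 TPM against 81.6 to 268 TPM in the T cell groups. The 6 markers of dividing cells summed to 1666 TPM in HIP and 1455 TPM in Ins dividing cells against 23.5 to 108 TPM in the other T cell groups. Since the authors' classes were defined on expression in these cells, differences between classes are descriptions for that reason too.

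Promoters of the stress-induced and constitutive lists were searched for the letters of heat shock elements. RefSeq promoter windows on GRCm38.p6 (mm10), each running from 250 bases before to 50 bases after a start site, were at hand for 28 of the 36 genes. A heat shock element is built of GAA units that face each other, so the letters GAANNTTC and TTCNNGAA were searched (each reads the same on both strands, and the 2 forms can overlap). They were found in 15.1% of all 32851 promoter windows and in 39.5% of 38 windows of the members. Among genes with a window, 6 of 7 stress-induced members held the letters (Bag3, Chordc1, Dnaja1, Hspa1a, Hspa1b and Hsph1, not Dnajb1). So did 7 of 21 constitutive members, or 33.3% (Cct2, Cct5, Cct6a, Cdc37, Dnajb6, Hspd1 and Hspe1). Counted by gene, the share was 17% of all genes with a window and 14.4% of those in the expression table. The longer forms with 3 units, GAANNTTCNNGAA and TTCNNGAANNTTC, were found in 0.603% of all windows and in those of Chordc1, Hsph1, Dnajb6, Hspd1 and Hspe1. A match is a description of letters, and no binding was measured here. The stretches below show a long element, the shared element of a gene pair that faces both ways, and the elements of 2 near-identical Hsp70 promoters beside a ring subunit; capitals mark the GAA and TTC units.
Chordc1 (chr9:18292261-18292290, plus strand, GRCm38.p6): cgGAAcgTTCggGAAaaTTCctGAAgcagt
Hsph1 (chr5:149636352-149636381, minus strand): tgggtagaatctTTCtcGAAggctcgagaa
Dnajb6 (chr5:29735848-29735877, plus strand): ccgaGAAtcTTCcgGAAcgctagaccagcg
Hspe1 (chr1:55088054-55088083, plus strand): gtccgTTCtaGAAccTTCcgGAAggccccg
Hspa1a (chr17:34972217-34972276, minus strand): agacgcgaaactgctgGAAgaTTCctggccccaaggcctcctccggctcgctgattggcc
Hspa1b (chr17:34959299-34959358, minus strand): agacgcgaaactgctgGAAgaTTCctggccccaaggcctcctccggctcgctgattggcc
Cct5 (chr15:31601847-31601906, minus strand): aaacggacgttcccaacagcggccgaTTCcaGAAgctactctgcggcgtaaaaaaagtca

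The Chordc1 stretch lies across its start site, from 6 bases before to 23 bases after it, and runs through 5 units. The Hsph1 stretch shows a match of 2 units, while the 3-unit form of Hsph1 begins 36 bases after the start site of that window. The stretches of Hspa1a and Hspa1b, neighbours on chromosome 17 that encode the inducible cytosolic Hsp70, were identical over all 60 bases shown, and 247 of the 250 bases before the start sites were the same. The Hspa1a gene spans chr17:34969190-34972156 and Hspa1b chr17:34956436-34959238, both on the minus strand of mm10 (GENCODE M21), and all stretches but that of Chordc1 lie before the RefSeq start site of their window. In GENCODE M21 the genes Dnajb6 (chr5:29735688-29818134, plus strand), Hsph1 (chr5:149614287-149636376, minus strand) and Chordc1 (chr9:18292125-18317442, plus strand) start farther upstream. By it the Dnajb6 and Chordc1 stretches and most of the Hsph1 stretch lie inside the gene. The Hspe1 stretch lies before Hspe1 but inside the Hspd1 gene (chr1:55077835-55088243, minus strand). Cct5 spans chr15:31590800-31601804 on the minus strand, and Dnajb1, whose window held no match, chr8:83608193-83612653 on the plus strand. Hspd1 and Hspe1 lie head to head on chromosome 1: their windows, on opposite strands, share 285 of 300 bases, so the element printed for Hspe1 also lies in the window of Hspd1.

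The most abundant members were constitutive, and the scarcest were stress-induced, with an overlap between the lists. Over the 420 cells of the 4 T cell classes, Hspa8, the constitutive cytosolic Hsp70, averaged 2594 ± 1936 TPM (SD over cells, here and below) and ranked 50 of 13561 genes. Pfdn5, a prefoldin subunit, averaged 895 ± 999 TPM (rank 174), Hsp90ab1, the constitutive Hsp90, 827 ± 834 TPM (rank 193), and Cct5, a ring subunit, 396 ± 560.2 TPM (rank 409). These are the 4 highest of the 36. Of the stress-induced members the highest was Dnaja1, a J protein partner of Hsp70, at 163 ± 228 TPM, the 13th of the 36 by level. Dnajb1 (126 TPM), Hsp90aa1 (119.8 TPM), Chordc1 (76.6 TPM) and Hsph1 (38.6 TPM) lay among or above the lower constitutive members, Hspa4 (64.5 TPM), Hsf1 (37.8 TPM) and Bag1 (23.4 TPM). Hspa1b at 2.44 ± 26.5 TPM and Hspa1a at 4.94 ± 53.1 TPM were the lowest, after Bag3 at 18.7 TPM. The SDs exceed the means for every member but Hspa8, since most members were at 0 in many cells: the median cell held 0 TPM for 31 of the 36, the exceptions being Hspa8, Pfdn5, Hsp90ab1, Dnaja1 and Cct5. A 0 in a single cell can be a failed capture as well as absence.

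**Figure D1:**
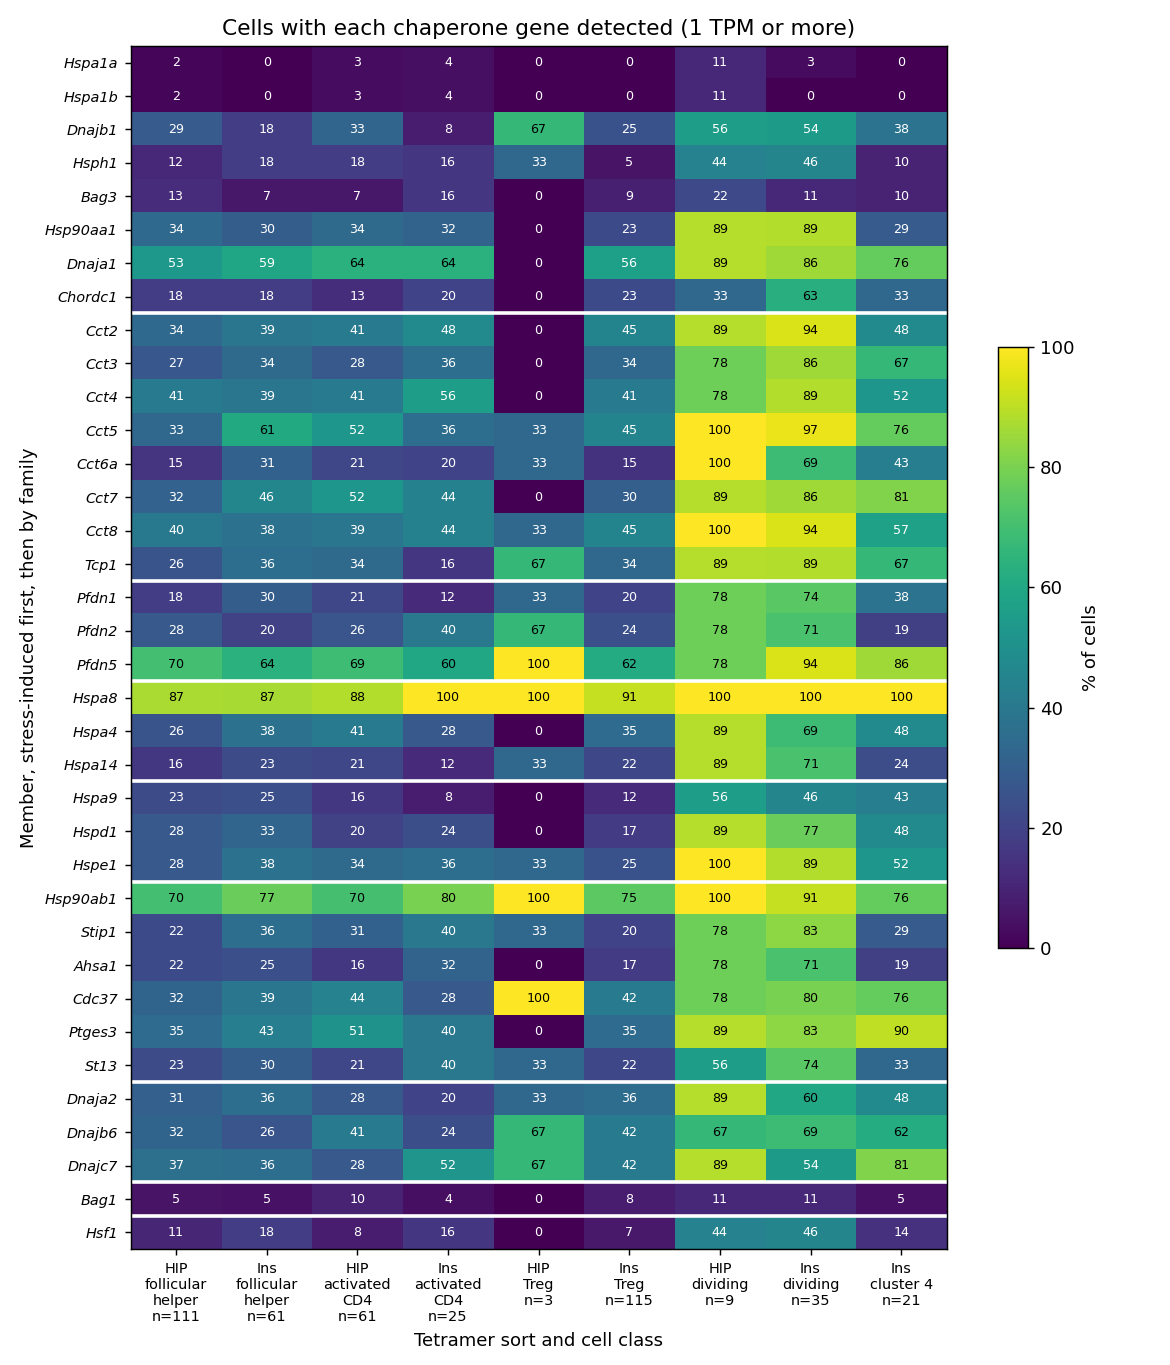
Share of cells in which each of the 36 genes was detected (1 TPM or more), in % by colour and number, for the 9 groups of tetramer sort and cell class (columns, with the number of cells) and the genes (rows, in families separated by white lines). The Hspa1a and Hspa1b rows are near 0 outside HIP dividing cells, Hspa8 lies at 86.9% or more in every group, and nearly all rows are brighter in the dividing columns.

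Hspa1a and Hspa1b, the most strictly inducible members, were almost silent in these islet T cells. Hspa1a was detected in 7 of 420 T cells (1.67%, exact 95% interval 0.673% to 3.4%) and Hspa1b in 6 of them (1.43%, 0.526% to 3.08%); intervals here and below cover counting error only. Neither was detected in 61 Ins T follicular helper cells (a share of up to 4.92% is allowed by such a count), in 115 Ins Tregs (up to 2.61%) or in the 21 cells of cluster 4 (up to 14.3%). All 6 cells with Hspa1b also held Hspa1a. The 2 genes shared 58.8% of the 50-base stretches of Hspa1a's transcripts, so reads could be split between them, and they are best read as a pair.

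The 7 cells were spread over both sorts and 3 classes. The highest level of Hspa1a, 753 TPM, came from a HIP activated cell that also held 503 TPM of Dnajb1, 602 TPM of Hsp90aa1 and 184 TPM of Hsph1, and in which 6 of the 8 stress-induced members were detected. A HIP T follicular helper cell held 706 TPM of Hspa1a and 228 TPM of Hspa1b but no Dnajb1, Hsph1, Hsp90aa1 or Bag3. Bag3 was at 0 in all 7 cells and Dnajb1 in 5 of them. Hsph1 was above 0 in 5 of the 7 cells, and so was Hsp90aa1. The other 5 cells held 7.2 to 236 TPM of Hspa1a and 4 or 5 of the 8 members, the pair included, so 6 of the 7 cells showed 4 or more.

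Dnajb1, the J protein that works with inducible Hsp70, was the stress-induced member that differed most between the sorts in the T follicular helper and activated classes. It was detected in 28.8% of HIP T follicular helper cells (20.6% to 38.2%) and 18% of Ins cells of that class (9.36% to 30%), in 32.8% (21.3% to 46%) and 8% (0.984% to 26%) of activated cells, and in 25.2% (17.6% to 34.2%) of Ins Tregs. Its mean was 161 ± 347 TPM in HIP and 88.7 ± 264 TPM in Ins T follicular helper cells, and 184 ± 387 and 32.1 ± 111 TPM in activated cells. The median cell was at 0 in those 5 groups, and the highest cells held 1661, 1370, 2018, 406 and 1021 TPM in the order HIP and Ins T follicular helper, HIP and Ins activated, and Ins Treg. In dividing cells the shares were alike, at 55.6% in HIP and 54.3% in Ins. In cluster 4 it was 38.1%.

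Hsp90aa1, the inducible Hsp90, did not follow that pattern. Its share was 34.2% of HIP and 29.5% of Ins T follicular helper cells, 34.4% and 32% of activated cells and 22.6% of Ins Tregs, with intervals that overlap throughout (15.3% to 31.3% for Tregs, 25.5% to 43.8% for HIP T follicular helper cells). In dividing cells its share was 88.9% for HIP (51.8% to 99.7%) and 88.6% for Ins (73.3% to 96.8%), at 298 ± 261 and 292 ± 208 TPM. The dividing class of each sort thus stood above every other T cell group for this gene.

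Dnaja1 was found in 53.2% to 64% of the cells of the T follicular helper, activated and Ins Treg groups and in 85.7% and 88.9% of Ins and HIP dividing cells, but its mean there, 177 ± 136 and 117 ± 83 TPM, lay within the 143 to 253 TPM of the other groups or below it. Hsph1, a large Hsp70-related exchange factor, was detected in 11.7% to 18% of the T follicular helper and activated groups, 5.22% of Ins Tregs (1.94% to 11%) and 45.7% of Ins dividing cells (28.8% to 63.4%). Bag3, which couples Hsp70 to autophagy, was in 6.56% to 16% of T follicular helper, activated and Ins Treg cells, 22.2% of HIP dividing cells (2.81% to 60%) and 11.4% of Ins dividing cells (3.2% to 26.7%). Chordc1, an Hsp90-binding protein, was in 13.1% to 22.6% of the same non-dividing groups, 33.3% of HIP dividing cells (7.49% to 70.1%) and 62.9% of Ins dividing cells (44.9% to 78.5%). Only Hsp90aa1, Dnajb1, Dnaja1, Hsph1 and, in Ins, Chordc1 were therefore found in more than 40% of any group over 5 cells, and Bag3 was in at most 22.2% and Hspa1a and Hspa1b in at most 11.1% of any group.

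Detection was low for most constitutive members too. The 8 ring subunits were each detected in 15.3% to 41.4% of HIP T follicular helper cells, with Cct6a lowest and Cct4 highest, and in 31.1% to 60.7% of Ins cells of that class. Hspa8 was detected in 86.9% to 100.0% of the cells in every group, Hsp90ab1 in 70.3% to 100.0% and Pfdn5 in 60% to 100.0%. Bag1, which releases Hsp70 clients, was found in 4% to 11.4% and Hsf1, the regulator of the stress response, in 6.96% to 18% of cells outside the dividing class and in 44.4% and 45.7% of HIP and Ins dividing cells, leaving aside the 3 HIP Tregs. The 3 HIP Tregs are too few to describe: Hspa8, Hsp90ab1, Pfdn5 and Cdc37 were detected in all 3, and 17 members were at 0 in each.

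In the T follicular helper class, 4 of the 8 ring subunits and Stip1 were lower in the HIP sort than in the Ins sort by more than the threshold, and Dnajb1 was higher. Differences are those of mean log2(TPM + 1), HIP minus Ins, and a gene is called past a difference of 1 where at least 10% of cells in either sort held it; this was so for 33 of the 36 members (not Hspa1a, Hspa1b or Bag1). Dnajb1 was the 1 member called higher, at 1.12, against 2.08% of the 5779 genes that passed the filter. Called lower were 5 members, Cct5 (-2.45), Stip1 (-1.43), Cct6a (-1.33), Cct7 (-1.27) and Tcp1 (-1.11), against 3.79% of all such genes. All 8 ring subunits lay below 0, from -2.45 to -0.01 (Cct4), with a median of -0.84. So did 23 of the 28 constitutive members, with a median of -0.47, and 55.2% of the genes that passed the filter. The median of the 8 stress-induced members was 0.15, with Dnaja1 lowest at -0.61 and Hsph1 at -0.52, that of all genes was 0.00, and that of the genes that passed the filter was -0.06.

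Cct5, the ring subunit with the largest difference, had a detected share of 33.3% in HIP (24.7% to 42.9%) and 60.7% in Ins (47.3% to 72.9%). Its TPM was 313 ± 555 in HIP, with a median of 0 and a highest cell of 2619, and 519.6 ± 533 in Ins, with a median of 499 and a highest cell of 1498. Detected cells were alike, with medians of 789 (HIP) and 827 TPM (Ins), so the sorts differed in how many cells held the transcript more than in its level where it was found. Per block, mean log2(TPM + 1) of Cct5 was 3.63 and 2.68 in HIP and 4.85, 6.43 and 5.42 in Ins, with no overlap. Its transcripts shared no 50-base stretch with another annotated gene.

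Cct6a, another ring subunit, was in 15.3% of HIP cells and 31.1% of Ins cells, at means of 87.8 and 205 TPM, and its block means also lay apart. Tcp1, the subunit after which the ring was first named, was in 26.1% and 36.1%, at 128 ± 285 and 242 ± 403 TPM. Cct7 was in 31.5% and 45.9%, at 207 ± 402 and 337 ± 522 TPM, with overlapping blocks. Stip1, which hands clients from Hsp70 to Hsp90, was in 22.5% and 36.1%, at 86.3 ± 236 and 189.8 ± 357 TPM; its Ins block means were 3.96, 4.04 and 1.30, so block 5 lay below both HIP blocks.

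By blocks, every HIP block lay above every Ins block for 2 of the 33 members, Dnajb1 and Pfdn2, against 8.25% of all genes that passed the filter, and below for 5, Cct5, Cct6a, Tcp1, Hspe1 and St13, against 10.1%. The share of members apart by block was thus near the background. The count of members called depended on the blocks: without block 5, no member was called higher (Dnajb1 was then 0.99) and 8 lower, without block 3 there were 2 and 8, and without block 2 there were 3 higher. The Dnajb1 difference was 0.91 without block 1. With a pseudocount of 10 TPM none was called higher and 1 lower, and by the ratio of mean TPM none was called higher and 3 lower. Markers of other cells differed between the sorts in this class as well: 6 acinar markers summed to a mean of 205 TPM in HIP (0 to 6682) and 34.8 TPM in Ins (0 to 895), with Cpa1 at 0 in both. For 6 islet markers the means were 252 TPM (0 to 11882) and 95.7 TPM (0 to 2695), with Chga at 0 in both, and for 6 B cell markers 185 TPM (0 to 15591) and 303 TPM (0 to 8685), with Ms4a1 at 0 in Ins. The median cell held 0 TPM of each of the 3 lists. Their part in the chaperone differences was not tested.

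**Figure D2:**
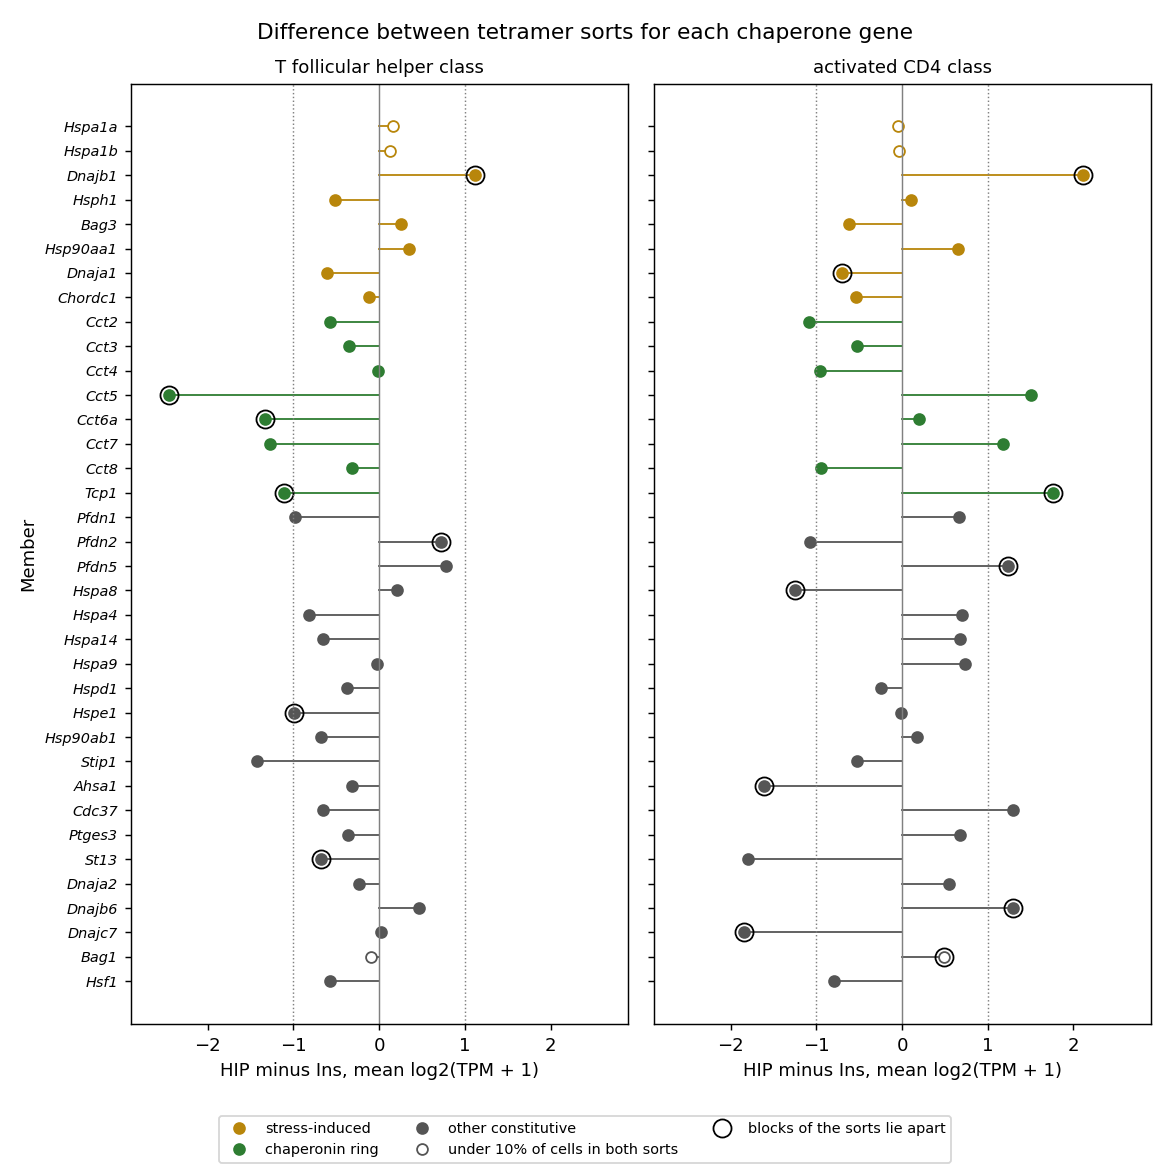
Difference HIP minus Ins of mean log2(TPM + 1) (x axis) for each of the 36 genes (y axis) in the T follicular helper class (left, 111 and 61 cells) and the activated CD4 class (right, 61 and 25 cells). Filled points passed the detection filter, dotted lines mark a difference of 1, and black circles mark genes whose blocks of the 2 sorts do not overlap. All 8 green ring points lie below 0 on the left and 4 of 8 do on the right.

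In the activated CD4 class the 8 ring subunits did not share a direction. Called higher in HIP were 7 of 33 members, Dnajb1 (2.11), Tcp1 (1.76), Cct5 (1.50), Cdc37 and Dnajb6 (1.29 each), Pfdn5 (1.24) and Cct7 (1.18), against 8.42% of the 6079 genes that passed the filter. Called lower were 6, Dnajc7 (-1.84), St13 (-1.80), Ahsa1 (-1.61), Hspa8 (-1.25), Cct2 (-1.08) and Pfdn2 (-1.07), against 6.74%. Of the ring, 4 subunits lay above 0: Tcp1, Cct5, Cct7 and Cct6a (0.20). These were the 4 called lower in the T follicular helper class. The other 4 lay below 0, and 52.9% of the genes that passed the filter lay above 0. The ring median was -0.16 and ran from -0.41 to 0.22 when each block was left out. The medians of the constitutive and stress-induced members, 0.19 and -0.04, were near the 0.00 of all genes. With 25 Ins cells a single cell is 4% of the group.

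Tcp1 was detected in 34.4% of HIP activated cells (22.7% to 47.7%) and 16% of Ins activated cells (4.54% to 36.1%), at 171 ± 309.9 and 34.8 ± 105 TPM. Its blocks averaged 2.53 and 3.28 in HIP against 0.89, 0.90 and 1.63 in Ins, so they lay apart, in the direction opposite to that in the T follicular helper class. Cct5 was detected in 52.5% (39.3% to 65.4%) and 36% (18% to 57.5%), with median cells of 5.57 and 0 TPM and highest cells of 4108 and 1171 TPM, but Ins block means ran from 1.26 to 5.62 on either side of both HIP blocks. Without block 5 the Cct5 difference was 0.27. Dnajb1 was the member with the largest difference, with block averages of 3.10 and 2.56 for HIP against 0.00, 2.47 and 0.00 for Ins.

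Hspa8 was detected in 100.0% of the 25 Ins activated cells (86.3% to 100.0%) and 88.5% of the 61 HIP cells (77.8% to 95.3%), yet its mean was 2675 ± 1442 TPM in Ins and 2405 ± 1983 TPM in HIP. The log2 ratio of these means was -0.15 and the difference of mean log2 values -1.25; 54 of the 61 HIP cells held 1 TPM or more. Dnajc7, a J protein that binds both Hsp70 and Hsp90, was in 27.9% of HIP and 52% of Ins cells. St13, which stabilises Hsp70 bound to a client, was in 21.3% and 40%, and Ahsa1, the activator of the Hsp90 ATPase, in 16.4% and 32%. Cdc37, which brings kinases to Hsp90, was in 44.3% and 28%, and the J protein Dnajb6 in 41% and 24%. Pfdn5 was in 68.9% and 60%, Cct7 in 52.5% and 44%, Cct2 in 41% and 48%, and Pfdn2 in 26.2% and 40%. Apart by block were Dnajb1, Tcp1, Pfdn5 and Dnajb6 above (background 9.99%) and Dnaja1, Hspa8, Ahsa1 and Dnajc7 below (background 7.21%). Under a pseudocount of 10 TPM, 2 members were called higher and 3 lower, and by the ratio of means 4 were called higher.

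**Figure D3:**
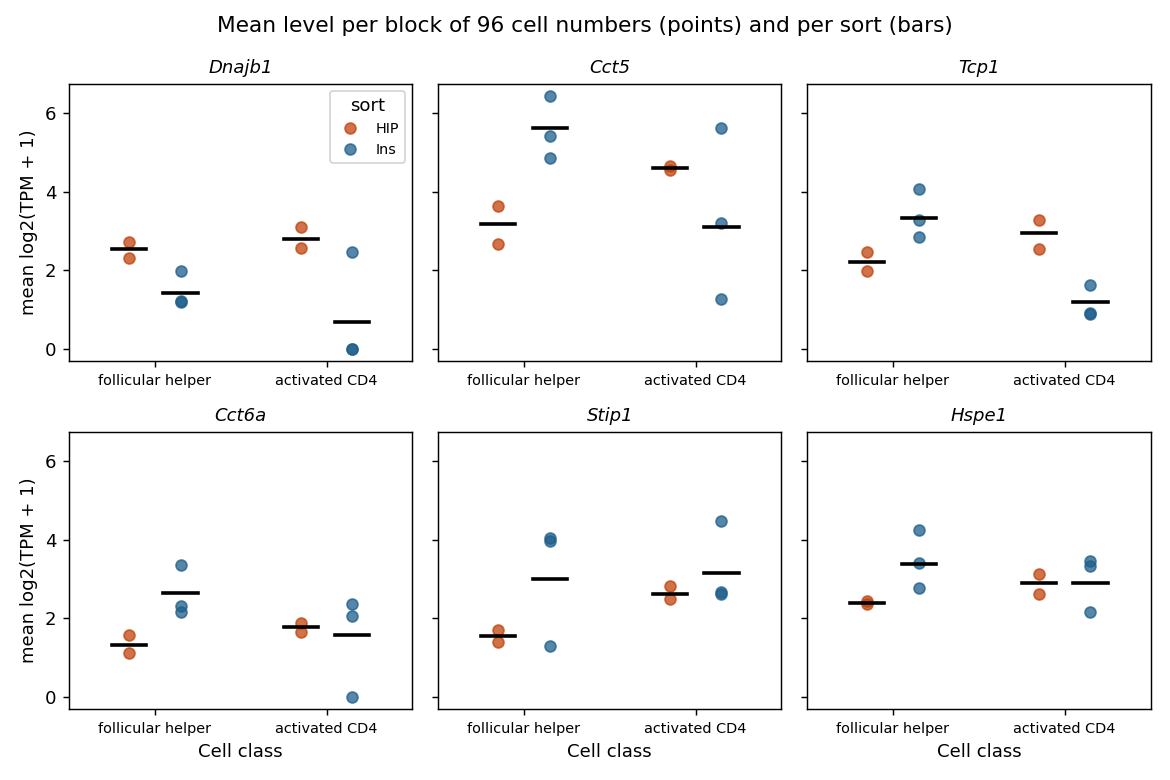
Mean log2(TPM + 1) of 6 chaperone genes per block of 96 consecutive cell numbers (points; orange HIP, blue Ins) and over all cells of a sort (bars), in the T follicular helper and activated CD4 classes. Tcp1 points of the sorts lie apart in both classes but in opposite order, and 2 Ins points of Dnajb1 in activated cells lie at 0.

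Over the 9 HIP and 35 Ins dividing cells, all 36 members passed the filter. Called higher in HIP were 7, with Cct6a (2.57), Dnaja2 (2.35), Hsp90ab1 (1.52) and Dnajc7 (1.42) the largest, against 17.2% of 9539 genes, and called lower were 3, Chordc1 (-2.85), Pfdn5 (-2.09) and St13 (-1.13), against 10%. The count of called members was thus close to the background. Cct6a was detected in all 9 HIP cells (66.4% to 100.0%) and in 68.6% of Ins cells (50.7% to 83.1%), at 308 ± 168 and 231 ± 231 TPM. Pfdn5 was at 272 ± 249 TPM in HIP and 584 ± 380.2 TPM in Ins. Dnaja2, a J protein for refolding by Hsp70, was in 88.9% of HIP and 60% of Ins cells, at 148 ± 83.8 and 94.5 ± 106 TPM. The number called higher was 14 without block 2 and 3 without block 5, and the number called lower was 6 without block 1 and 6 without block 4, so no single member count stands for this class. By the ratio of means 1 was called higher, and with a pseudocount of 10 TPM 3 were. The sorts differed in Treg markers here too: 6 such genes summed to a mean of 954 TPM in Ins against 275 TPM in HIP. Foxp3 was seen in 77.1% of the Ins dividing cells, Tnfrsf9 in 42.9% and Ikzf4 in 40%. Each of these 3 shares was 0% in the HIP dividing cells. The part of this in the chaperone differences was not tested.

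Within the HIP sort, 2 of 8 ring subunits and 3 of 6 genes of Hsp90 and its cochaperones were higher in activated than in T follicular helper cells by more than the threshold. The called members were 5 of 33, Cct7 (1.80), Cct5 (1.41), Ptges3 (1.29), Stip1 (1.08) and Cdc37 (1.04), against 8.57% of 5835 genes, and none was called lower, against 2.78%. Other ring subunits lay near 0, Cct4 at 0.00, Cct3 at 0.06 and Cct8 at -0.14, and Ahsa1 was at -0.69. The ring median was 0.54, that of all constitutive members 0.11, and that of the stress-induced members 0.12. Ptges3, the p23 cochaperone that locks Hsp90 onto its client, was in 50.8% of activated and 35.1% of T follicular helper cells, at 179 ± 416 and 83.7 ± 209.7 TPM. In each of the 2 HIP blocks 13 members lay above, Cct2, Cct5, Cct6a, Cct7 and Tcp1 of the ring among them, and 7 below, against 33% and 25.4% of all genes, shares close to the background. Without block 3, which left 27 and 59 cells, 8 members were called higher and 3 lower, and the stress-induced median was -0.16. Without block 1 the ring median was 0.23. By the ratio of means 1 member was called higher and 1 lower, with a constitutive median of -0.01, and with a pseudocount of 10 TPM 1 was called higher.

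Within the Ins sort, Tregs had fewer transcripts of the mitochondrial chaperones than T follicular helper cells. Hspd1, the mitochondrial chaperonin, was seen in 17.4% of Tregs (11% to 25.6%) and 32.8% of T follicular helper cells (21.3% to 46%), at 78.2 ± 222 and 153 ± 299 TPM, a difference of -1.24. Its lid Hspe1 was in 25.2% (17.6% to 34.2%) and 37.7% (25.6% to 51%), at 87 ± 195 and 220.1 ± 341 TPM, a difference of -1.41. Hspa9, the mitochondrial Hsp70, was in 12.2% and 24.6%, a difference of -1.01. All 3 lay lower in Tregs in each of the 3 Ins blocks.

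Called lower in that comparison were 7 of 32 members that passed the filter, the 3 mitochondrial genes together with Cct5 (-1.58), Stip1 (-1.41), Cct7 (-1.37) and Cct6a (-1.35), against 4.34% of 6061 genes. Called higher was 1, Dnajb6 (1.16), against 9.01%. The 6 genes of Hsp90 and its cochaperones all lay below 0, with a median of -0.58, as did 48.8% of the genes that passed the filter. The constitutive and stress-induced medians were -0.29 and -0.01. By blocks 10 members were lower in every block, against 15.5% of genes, and 1, Dnajb1, was higher, against 21.2%. Cct5, Stip1, Cct6a and Cct7 were also called lower in the HIP against Ins comparison of T follicular helper cells, together with Tcp1, which was at -0.36 here: both comparisons share the 61 Ins T follicular helper cells, in which each of these genes stood high, so the calls are not separate evidence. The number called lower was 11 without block 2 and 3 without block 5. Cct7 differed by -0.05 without block 5, and Dnajb6 by 0.22 without block 4. The ring median was -0.60 without block 4 and -0.46 without block 2, and with a pseudocount of 10 TPM 1 member was called lower and none higher.

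Most chaperones, but not the J proteins of the constitutive list, were higher in dividing Ins cells than in Ins Tregs by mean TPM. By that measure Hsph1 was 4.97 times as high in dividing cells, Stip1 3.61 times, Hsp90aa1 3.3 times, Hspe1 3.28 times, Hspd1 3.03 times and Cct6a 2.74 times. Hsf1 was at 47.8 ± 79.7 TPM against 17.7 ± 83.9 TPM, a ratio of 2.69. Hspa8 was at 3935 ± 2205 TPM against 2230 ± 1585 TPM, a ratio of 1.76. The other direction held for Dnaja2 (a ratio of 0.481), Bag1 (0.436), Dnajc7 (0.647), Dnajb6 (0.738) and Pfdn5 (0.747), and Hspa4 (0.966) and Cdc37 (0.999) were level, so 7 of the 28 constitutive members were not higher. Dnajb1, the member that differed between the sorts, was at 91.9 ± 107 TPM in dividing cells and 104 ± 228 TPM in Tregs.

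On the log2 scale 31 of the 34 members that passed the filter were called higher in dividing cells, against 42.3% of 8150 genes, and none lower, against 0.896%. In each of the 3 blocks 30 members lay higher, against 50.9%, and none lower, against 6.33%. The largest were Hsp90aa1 (5.38), Hspe1 (5.12), Stip1 (4.98) and Cct7 (4.77). All 8 ring subunits were called, at 3.67 to 4.77, with a median of 4.32. The constitutive median was 3.66 and the stress-induced median 2.05, beside 0.23 for all genes and 0.80 for those that passed the filter. These log2 values follow detection: 3610 genes were detected in the median dividing cell and 2017 in the median Treg. By the ratio of mean TPM, 11 members were called higher, against 15.5% of genes, and 2 lower, against 17.7%, and the medians were 0.74 for the ring, 0.72 for the constitutive and 0.46 for the stress-induced members. Among cells with 2500 to 4500 genes detected (28 dividing, 19 Treg), a choice made after seeing the data, the log2 medians were 2.43, 1.97 and 0.68.

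Dividing cells showed most of the ring subunits, and other cells a minority. A mean of 7.03 ± 1.25 of the 8 subunits was detected in Ins dividing cells, all 8 in 18 of 35 cells (51.4%, 34% to 68.6%), and 7.22 ± 0.833 in HIP dividing cells, all 8 in 4 of 9. In the T follicular helper class the mean was 2.5 ± 1.73 in HIP and 3.25 ± 1.8 in Ins, in activated cells 3.1 ± 1.62 and 3 ± 1.96, and in Ins Tregs 2.9 ± 1.71. All 8 were seen in 4 of 61 Ins T follicular helper cells, 0 of 111 HIP cells of that class, 0 of 61 HIP and 0 of 25 Ins activated cells, and 1 of 115 Ins Tregs. The ring is built of all 8 proteins; how far the low counts come from missed transcripts was not tested. Across cells, the number of ring subunits and the number of genes detected had Spearman correlations of 0.66 in HIP and 0.50 in Ins T follicular helper cells, 0.45 in Ins Tregs and 0.43 in Ins dividing cells. Both numbers come from the same library, and these values are descriptions.

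**Figure D4:**
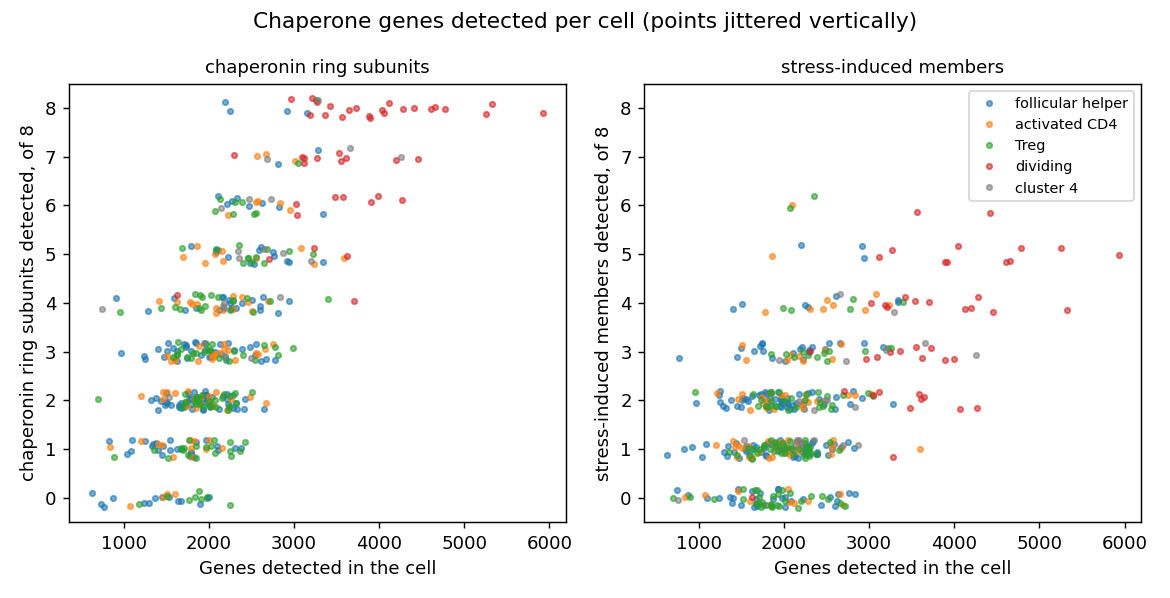
Number of the 8 chaperonin ring subunits (left) and of the 8 stress-induced members (right) detected in each of the 441 cells (y axis, jittered) against the number of genes detected in that cell (x axis), coloured by class. Dividing cells (red) reach 8 ring subunits, mostly above 3000 genes, while no cell shows more than 6 stress-induced members.

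Cells showed few stress-induced members at a time. The mean number detected was 1.62 ± 1.24 in HIP and 1.49 ± 0.977 in Ins T follicular helper cells, 1.75 ± 1.31 and 1.64 ± 1.19 in activated cells, 1.41 ± 1.26 in Ins Tregs, 1.95 ± 1.12 in cluster 4, and 3.56 ± 1.24 and 3.51 ± 1.4 in HIP and Ins dividing cells. Cells with 3 or more made up 21.6% of HIP (14.4% to 30.4%) and 13.1% of Ins T follicular helper cells (5.84% to 24.2%), 24.6% (14.5% to 37.3%) and 16% (4.54% to 36.1%) of activated cells, and 16.5% of Ins Tregs (10.3% to 24.6%). In dividing cells they made up 77.8% in HIP (40% to 97.2%) and 74.3% in Ins (56.7% to 87.5%). The intervals of the sorts overlap in each class. No stress-induced member was detected in 18% of T follicular helper cells of either sort and in 25.2% of Ins Tregs.

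As a share of all transcripts, constitutive members outweighed stress-induced members in every group. The 28 constitutive members took 0.825% ± 0.355 of TPM in HIP and 0.91% ± 0.412 in Ins T follicular helper cells, 0.811% ± 0.307 and 0.819% ± 0.282 in activated cells, 0.724% ± 0.288 in Ins Tregs, 1.13% ± 0.332 and 1.12% ± 0.408 in HIP and Ins dividing cells and 0.583% ± 0.193 in cluster 4. The 8 stress-induced members took 0.0572% ± 0.0634 and 0.0531% ± 0.0519 in T follicular helper cells, 0.0608% ± 0.0661 and 0.0535% ± 0.045 in activated cells, 0.0441% ± 0.0551 in Ins Tregs, 0.0641% ± 0.0378 and 0.0757% ± 0.0395 in dividing cells, and 0.0278% ± 0.0199 in cluster 4. Against Ins Tregs, the means in Ins dividing cells were 1.55 times as high for the constitutive and 1.72 times for the stress-induced list, and 1.67 times for the ring. In the HIP sort the constitutive share was again highest in dividing cells, while the stress-induced mean there, 0.0641%, was close to the 0.0608% of activated cells, with medians of 0.046% and 0.0441%.

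In the T follicular helper class the stress-induced share differed less between the sorts than between blocks of the same sort. It averaged 0.0727% in block 1 and 0.0396% in block 3 (HIP), and 0.0463%, 0.0317% and 0.0782% in blocks 2, 4 and 5 (Ins), which overlap. In activated cells it averaged 0.0715% and 0.0523% in the HIP blocks against 0.0548%, 0.0552% and 0.0512% for Ins, which also overlap. In Ins Tregs the 3 blocks averaged 0.0621%, 0.0451% and 0.0305%. The ring share lay apart in the T follicular helper class: it averaged 0.169% ± 0.123 in HIP and 0.241% ± 0.148 in Ins. By block it was 0.181% and 0.156% for HIP against 0.238%, 0.213% and 0.27% for Ins, with no overlap. In activated cells it was 0.201% ± 0.117 and 0.198% ± 0.133, and the blocks overlapped.

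**Figure D5:**
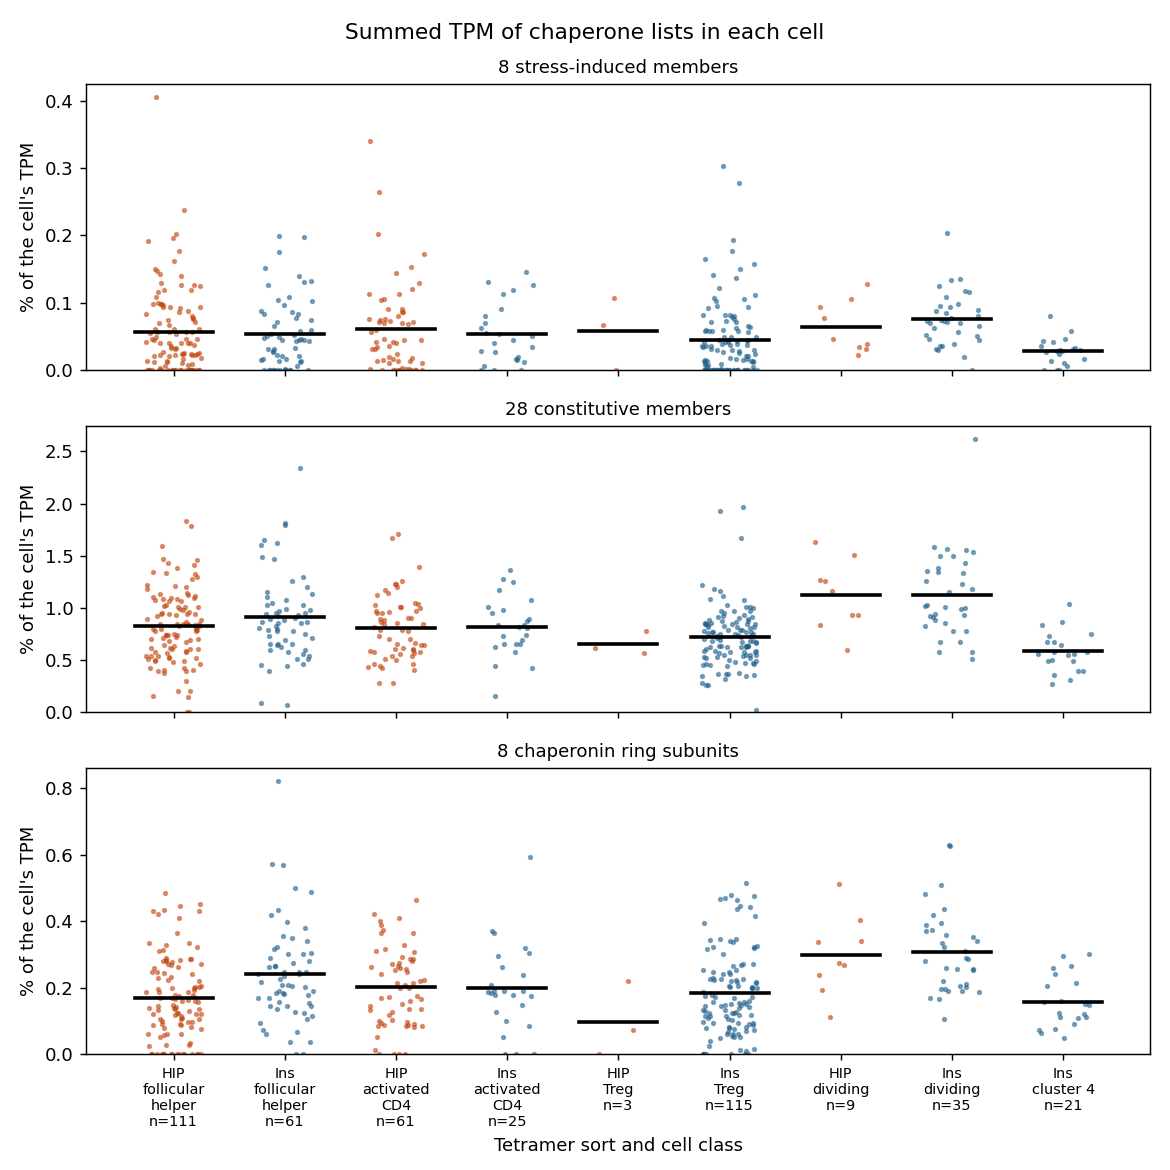
Summed TPM of the 8 stress-induced, 28 constitutive and 8 chaperonin ring genes in each cell, as % of the cell's TPM (y axes differ), by tetramer sort and class with the number of cells; bars are means, orange is HIP and blue is Ins. Constitutive means lie between 0.583% and 1.13%, stress-induced means between 0.0278% and 0.0757%, and both are highest in dividing cells.

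Immediate-early genes, which mechanical or enzymatic handling of cells is known to induce, stood higher in HIP in the T follicular helper and activated classes and lower in the dividing class. The 15 listed genes took 0.474% of transcripts in HIP against 0.136% in Ins T follicular helper cells, and 0.393% against 0.126% in activated cells. In each of these classes 6 of the 12 that passed the filter were called higher in HIP, against 2.08% and 8.42% of all such genes. In dividing cells they took 0.0415% in HIP against 0.0919% in Ins. There, 5 of 11 were called lower, against 10% of all such genes, and none higher, against 17.2%. The sorts also differed in Treg markers in the dividing class, as given above. In HIP T follicular helper cells the blocks averaged 0.624% in block 1 and 0.304% in block 3. The stress-induced share had the same block order in HIP T follicular helper and HIP activated cells. It had a different order in HIP dividing cells and in every Ins class. Across the 111 HIP cells of that class the summed immediate-early and stress-induced levels had a Spearman correlation of 0.17, and across the 61 Ins cells 0.09. Whether handling has a part in the Dnajb1 difference was not tested.

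Partner genes were seen together in most dividing cells and in fewer cells of the other classes. Hspd1 and Hspe1, which share a promoter region and form the mitochondrial chaperonin and its lid, were both detected in 6 of 115 Ins Tregs, Hspd1 alone in 14, Hspe1 alone in 23 and neither in 72. In Ins dividing cells both were detected in 26 of 35, Hspd1 alone in 1 and Hspe1 alone in 5. Of 111 HIP T follicular helper cells 13 held both and 18 held each gene alone, and of 61 Ins cells of that class 13 held both, 7 Hspd1 alone and 10 Hspe1 alone. In cluster 4 both were in 6 of 21 cells. In HIP T follicular helper cells 31 cells held both Hsp90aa1 and its constitutive relative Hsp90ab1, against 7 with Hsp90aa1 alone. Of all 441 cells, 132 held both Hsp90 genes, 202 only Hsp90ab1 and 24 only Hsp90aa1. Hsp90ab1 was detected in 70.3% of HIP T follicular helper cells and in 75.7% of the 420 T cells, so many joint detections follow from its own share. The same limit holds for Hspd1 and Hspe1, found in 77.1% and 88.6% of Ins dividing cells and in smaller shares of Ins Tregs, as given above. Joint detection was not separated from these single shares. The median Spearman correlation over the 28 pairs of ring subunits was 0.07 in HIP and 0.06 in Ins T follicular helper cells, 0.04 in Ins Tregs and 0.21 in Ins dividing cells. Such weak values in sparse data are no finding.

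Other genes of the chaperone pathway were read beside the members. Of 68 listed, 63 were in the table, and 36 passed the filter in HIP against Ins T follicular helper cells. There, 1 was called higher, Dnajb9 (1.30), a J protein of the endoplasmic reticulum, against 2.08% of all genes that passed the filter. Called lower were 2, Dnajb11 (-1.51), another of that compartment, and Tomm34 (-1.44), a cochaperone of mitochondrial import, against 3.79%. In activated cells 3 of 38 were called higher and 5 lower, against 8.42% and 6.74% of all such genes. Between activated and T follicular helper cells of the HIP sort 5 of 37 were called higher and 2 lower, against 8.57% and 2.78%. In Ins Tregs against T follicular helper cells 3 of 38 were called higher and none lower, against 9.01% and 4.34%. In Ins dividing cells against Tregs 32 of 50 were called higher and none lower, against 42.3% and 0.896%. The median there was 1.13 over the 63 genes beside 2.97 over the 36 members.

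Several members share sequence with other annotated genes, which limits how far their values can be told apart. In 50-base stretches of their transcripts, 68.8% of Hspa8, 66.3% of Hspa1a, 62.3% of Hspa1b, 50.1% of Hsp90aa1, 39.7% of Hspd1, 36.1% of Hspe1 and 27.1% each of Dnaja1 and Pfdn2 were also found in another gene, for Hspa8 and Hsp90aa1 mostly in a predicted gene model. For Tcp1 the share was 18.6% and for Cct6a 15.4%. Cct2, Cct5, Hsph1, Bag3, Pfdn1, Hspa4, Dnaja2, Bag1 and Hsf1 shared none. Values of the genes with large shares are therefore less certain.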

How the data were processed

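Expression was deposited by the authors as natural log values (13561 genes, 441 cells). Within each cell, exp(value) - 1 added up to 100000, so a value was taken as ln(TPM/10 + 1), and TPM, with a sum of 1000000, was computed from it. The authors' deposited annotation gave sort, class, cluster and number of genes of each cell. The submitters' processing notes name TopHat, Bowtie, RSEM 1.2.8 and mm10; for their roles and for earlier filters, nothing was given in the sources used here. Libraries were made with SMART-Seq2 and read as 50 and 25 base pairs, per the labels' protocols. No doublet caller was run; cells were sorted singly per the labels.

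A gene was detected at 1 TPM. Differences are of mean log2(TPM + 1), which understates changes of low genes and, with many zeros, follows detection. Genes detected in 10% of either group entered a comparison, and a difference of 1 was the threshold. Intervals of shares are exact (Clopper-Pearson, 95%); a share of 0 has the limit of 3 cells. The labels name no animal, so no test was made. The members, lists and comparisons were chosen with earlier results of these data known. Named genes are the 8 stress-induced members, each constitutive member past the threshold in the sort comparisons of T follicular helper and activated cells or in Treg against T follicular helper, and otherwise the 4 largest in each direction. A protein comparison was not run. Alternatives were other pseudocounts, ratio of means, no filter, cells of like gene number, cells low in Rn45s (a ribosomal RNA precursor), each block left out, other list widths and other detection limits. Gene positions are from GENCODE M21, sequences from RefSeq. The difference calculation was checked on redrawn Ins Treg cells in which chosen genes were multiplied by a known factor. The block rule was checked on a small made-up example. Python 3.11.15, numpy 2.4.6, pandas 2.3.3 and scipy 1.17.1 were used.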

Additional observations from a re-analysis of the deposited data

Results flagged for a closer look

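Tcp1, a subunit of the chaperonin ring, lay apart between the sorts in opposite directions in 2 classes. The difference HIP minus Ins was -1.11 in the T follicular helper class, where both HIP blocks lay below all 3 Ins blocks, and 1.76 in the activated CD4 class, where both lay above. Cct6a did the same between the T follicular helper class (-1.33) and the dividing class (2.57). In neither case was the difference between the classes tested, and the dividing class held 9 HIP cells, 2 of them in block 1. How many of all genes lay apart in opposite directions was not counted, so these 2 members have no background to be read against. Within 1 class, 7.21% to 11.4% of the genes that passed the filter lay apart by block in a given direction. On the ratio of mean TPM the Cct6a difference in dividing cells was 0.41, and that of Tcp1 in activated cells was 2.26. Both genes share part of their sequence with others, Tcp1 18.4% of its 50-base stretches with Acat3 and Cct6a 11% with Psph.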

How the results depend on the processing

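Of 287 alternative values of counts, medians and means, 231 stayed within the spread between blocks or within 1.5 times of a count, and 56 moved. Of 147 alternative medians, all of them without a test, 16 had the other sign; they concern the activated and dividing sort comparisons (ring, -0.41 to 0.27 in activated cells against -0.16 as reported), activated or Treg against T follicular helper, and, with the wide list (-0.12), the stress-induced median of the T follicular helper sort comparison; the named differences kept their sign in every alternative run (6 of 6, 13 of 13, 7 of 7, 4 of 4, 8 of 8 and 4 of 4 in the 6 comparisons, in the order of the report). The named genes were chosen for passing the threshold in these same cells, so a kept sign is no separate evidence. They stayed past the threshold in every alternative for 0 of 6, 3 of 13, 2 of 7, 0 of 4, 0 of 8 and 4 of 4, in the same order. The causes of the changes were not tested. With a pseudocount of 10 TPM, members called higher and lower were 0 and 1 in HIP against Ins T follicular helper cells, 2 and 3 in activated cells and 0 and 1 in Treg against T follicular helper, and those called higher were 3 in dividing cells and 1 in activated against T follicular helper; in dividing against Treg the stress-induced, constitutive and ring medians were 1.08, 2.04 and 2.59. On the ratio of mean TPM these counts were 0 and 3, 4 (higher), 1 (higher), 1 and 1, 0 (higher), and 11 and 2, in the order HIP against Ins in T follicular helper, activated and dividing cells, activated against T follicular helper, Treg against T follicular helper and dividing against Treg; medians were -0.01 (constitutive) and 0.28 (ring) for activated against T follicular helper, and 0.46, 0.72 and 0.74 for dividing against Treg. In cells with 1500 to 3000 genes, 2 members were called higher in HIP T follicular helper cells, 3 lower in activated against T follicular helper and 2 higher in Treg against T follicular helper, where the constitutive and ring medians were -0.64 and -0.47. In cells with 2500 to 4500 genes, chosen after seeing the data, the medians of dividing against Treg were 0.68, 1.97 and 2.43. For that comparison a narrow stress-induced list of 5 gave 0.25 and a wide list of 13 gave 2.48. Leaving out each block gave 0 to 3 members higher and 6 to 8 lower in HIP against Ins T follicular helper cells, and 3 to 14 higher and 2 to 6 lower in dividing cells. For activated against T follicular helper it gave 5 to 8 higher, 0 to 3 lower, and medians of -0.16 to 0.22 (stress-induced), 0.14 to 0.25 (constitutive) and 0.23 to 0.55 (ring). For Treg against T follicular helper it gave 3 to 11 lower and medians of -0.57 to -0.24 (constitutive) and -0.60 to -0.15 (ring), and for dividing against Treg medians of 1.41 to 2.28 (stress-induced) and 3.09 to 3.87 (constitutive). No paired analysis was possible because each sort is 1 sample and no result comes from a test. Not run, for want of cells, were comparisons with dividing cells at 1500 to 3000 genes (0 HIP and 4 Ins cells), HIP against Ins dividing cells without block 3 (2 HIP cells left), and any alternative in the 3 HIP Tregs. With 1 sample per sort and no depth in TPM, fewer cells with a gene and poorer capture cannot be told apart.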
